A study of Caenorhabditis elegans with 4 samples.

Results

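The regions described here are the H3K4me3 peaks of chromosome II of Caenorhabditis elegans, taken as every peak that 2 deposited peak lists place on that chromosome. They number 634 of the 3811 peaks in replicate 1 and 590 of the 3487 peaks in replicate 2. Both lists come from ChIP-seq on N2 (wild-type) embryos of mixed stages, in which chromatin carrying histone H3 trimethylated at lysine 4 was pulled down with an antibody and its DNA sequenced. The embryos of both replicates were released from gravid adults grown in liquid culture and fixed in 2% formaldehyde for 30 minutes, and the labels give 2 mg of extract for each pulldown, where the study's methods state a smaller amount. The labels name version 3 of the extraction protocol for replicate 1 and version 2 for replicate 2, and the series text calls the replicates biological without saying more about their cultures. A mixed-stage embryo preparation holds many cell types, so that a peak found in all cells and a peak found in some of them cannot be told apart. The input DNA of the series was not used here.

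H3K4me3 is a histone mark placed around the start sites of transcribed genes, and in embryos it is used to locate active promoters. Each autosome of the worm has a gene-dense centre flanked by arms that are rich in repeats and recombine often. LEM-2 is a protein of the inner nuclear membrane, and chromatin that is pulled down with it lies near that membrane. The study listed stretches of continuous LEM-2 association, called LEM-2 subdomains, and the gaps between them, which it sorted by size into 4 classes (small, medium, large, extra large). No base sequence or gene is shown, because no genome of the coordinates' build was used here. Coordinates are given in ce4, the build to which the study aligned its H3K4me3 reads.

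A peak is a stretch that the MACS program called at a p-value threshold of 1e-05, separately in each replicate. Its score is 10 times the negative log10 of the p-value, so that a score of 50 lies at the threshold, and many scores pile up at 3100. The lists hold no read counts, so that the depth behind each peak is unknown here, and the methods give replicate 1 more reads than replicate 2. Intervals in brackets are 95% exact Poisson intervals for densities and exact Clopper-Pearson intervals for shares, and they cover counting error only. Values of single libraries are followed by the mean ± SD over both. With 2 replicates, the exact two-sided sign-flip test of a difference between chromosome II and the other chromosomes gave p = 0.5 for each of the 4 differences tested (density, width, spacing and share in subdomains), which is the smallest p this design allows. All comparisons with other chromosomes are therefore descriptions.

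Chromosome II was neither rich nor poor in H3K4me3 peaks for a worm chromosome. Over its 15.3 Mb it carried 41.5 peaks per Mb (38.3 to 44.9) in replicate 1 and 38.6 per Mb (35.6 to 41.9) in replicate 2, a mean of 40.1 ± 2.04 (SD, n = 2). It ranked 3 of 6 in both lists, below chromosomes III and I and above IV, X and V. Chromosome V had the fewest, with 24.6 and 22.4 peaks per Mb, and chromosome III the most, with 50.6 and 46.0. The other 5 chromosomes pooled had 37.4 and 34.1 peaks per Mb, so that chromosome II was higher by 4.11 in replicate 1 and 4.53 in replicate 2, a mean difference of 4.32 ± 0.293 (SD, n = 2). Peaks covered 12.9% of the bases of chromosome II in replicate 1 and 10.3% in replicate 2, against 11.0% and 8.91% on the other chromosomes pooled.

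The typical peak on chromosome II was a little over 2 kb wide. The median width was 2442.5 bp in replicate 1, with quartiles of 1962 and 3384 bp, and 2210 bp in replicate 2, with quartiles of 1856 and 2856 bp. Widths ran from 1350 to 17378 bp in replicate 1 and from 1226 to 14513 bp in replicate 2. The median exceeded that of the other chromosomes pooled by 73.5 bp in replicate 1 and by 19.0 bp in replicate 2, a mean of 46.2 ± 38.5 bp (SD, n = 2), so the difference was close in size to its own spread. Chromosome II ranked 1 of 6 for median width in replicate 1 and 4 of 6 in replicate 2. Its lower quartile was the highest of the 6 in both lists, and its upper quartile ranked 2 in replicate 1 and 6 in replicate 2.

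Broad peaks, taken as those of 5 kb or more, were a minority that held a large share of the marked bases. There were 72 in replicate 1, or 11.4% of the peaks of chromosome II beside 10.1% of the peaks of all chromosomes, and they held 27.7% of its bases in peaks. Replicate 2 had 35, or 5.93% beside 5.56% over all chromosomes, and they held 15.8% of the bases. The broad share was thus near the background in both lists. The 3 widest replicate 1 peaks were chrII:6822738-6840115 with 17378 bp, chrII:11533389-11549150 with 15762 bp and chrII:13816455-13831006 with 14552 bp. The first lay in the extra large gap at the middle of the chromosome, with the next replicate 1 peak only 125 bp away, and replicate 2 divided it into 2 peaks. The second lay near the right end of the same gap, and replicate 2 divided it into 3 peaks. The third lay on the right arm, across the left border of the medium gap chrII:13817594-13835897, and replicate 2 had 1 peak of 14114 bp there. The 3 narrowest replicate 1 peaks, chrII:3930091-3931440, chrII:13972826-13974175 and chrII:2488166-2489522, were 1350, 1350 and 1357 bp wide and scored 118.3, 59.9 and 71.4. None of these 3 had a replicate 2 peak, and all lay on the arms.

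Width and score rose together across the peaks of chromosome II. Spearman's rho was 0.503 over the 634 peaks of replicate 1 and 0.653 over the 590 peaks of replicate 2, beside 0.571 and 0.714 over the other chromosomes pooled. The peaks of 1 list share a library, and the pile-up at 3100 limits the ranks at the top. The share of peaks at 3100 or more was 34.2% in replicate 1 and 7.63% in replicate 2. Width had almost no relation to the distance to the nearest peak, with rho of 0.0055 and 0.0016 over the same peaks.

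Neighbouring peaks lay about 12 kb apart. The median distance from the end of a peak to the start of the next was 12128 bp in replicate 1 and 12768 bp in replicate 2, a mean of 12448 ± 452.6 bp (SD, n = 2). The quartiles were 4001 and 28003 bp in replicate 1 and 4039 and 31441 bp in replicate 2. On the other chromosomes pooled the medians were 13257.5 and 15293.5 bp, so that spacing on chromosome II was shorter, with differences of -1129.5 and -2525.5 bp. Against the other 4 autosomes alone the replicate 1 difference was -598 bp. Chromosome II again stood in the middle, with 3 chromosomes above and 2 below it in each list. Its longest spacing, 185315 bp in replicate 1, was the shortest such maximum of the 6 chromosomes, and in replicate 2, at 194495 bp, it ranked 5.

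**Figure D1:**
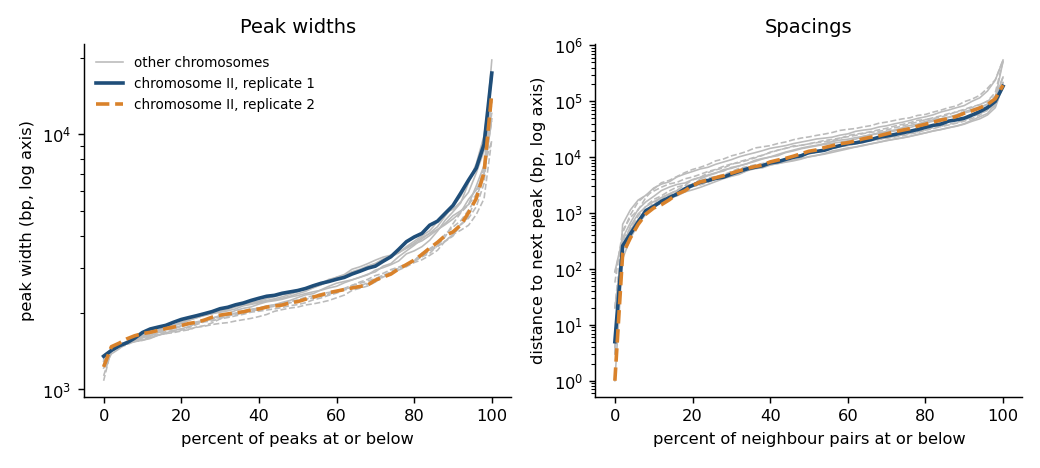
Quantiles of peak width (left, bp) and of the distance to the next peak (right, bp), both on log axes, for chromosome II in replicate 1 (solid blue) and replicate 2 (dashed orange) and for each of the other 5 chromosomes (grey). The width curve of replicate 1 lies above that of replicate 2 over most of its range (medians of 2442.5 and 2210 bp). It lies below it from the 2% to the 8% quantile (1589 against 1624 bp at 8%). The spacing curves of chromosome II run through the lower part of the grey ones (medians of 12128 and 12768 bp).

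Close neighbours, less than 1 kb apart, made up 46 of the 633 neighbour pairs of chromosome II in replicate 1, or 7.27% beside 6.57% over all chromosomes. In replicate 2 they made up 49 of 589, or 8.32% beside 6.55%, the highest share of the 6 chromosomes in that list. They joined 88 peaks into 42 runs in replicate 1 and 94 peaks into 45 runs in replicate 2, and no run held more than 3 peaks. The first run of 3 peaks was at the same place on the left arm in both lists, chrII:3302648-3311954 in replicate 1 and chrII:3302696-3311958 in replicate 2. The closest replicate 1 neighbours began at chrII:14793490-14797073, where 5 bp separated a peak of 3584 bp from one of 2306 bp, and replicate 2 also called 2 peaks there. The next closest, 15 bp apart, began at chrII:7082508-7086290, again with 2 replicate 2 peaks. The pair 24 bp apart that began at chrII:14140565-14142779 was spanned by 1 replicate 2 peak.

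At the other end, 62 spacings of replicate 1 exceeded 50 kb, or 9.79% beside 11.7% over all chromosomes, and 79 of replicate 2, or 13.4% beside 14.5%. When both lists were laid over each other, 63 stretches of more than 50 kb held no peak of either replicate, and together they made up 33.0% of chromosome II. The same measure was 21.2% on chromosome III and 58.6% on chromosome V. The 3 longest such stretches of chromosome II were chrII:3120119-3289907 (169.8 kb), chrII:1863689-2016649 (153.0 kb) and chrII:703202-847839 (144.6 kb). All 3 lay on the left arm and ranked 27, 34 and 38 among the peak-free stretches of the genome. The first was 98.9% subdomain by length and the other two lay wholly inside a subdomain.

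Along the chromosome, peaks were densest in the centre. The study's boundaries put the left arm at the first 4.69 Mb, the centre at the next 7.19 Mb and the right arm at the last 3.40 Mb. The left arm held 146 peaks in replicate 1 and 126 in replicate 2, or 31.1 per Mb (26.3 to 36.6) and 26.9 per Mb (22.4 to 32.0). The centre held 380 and 355 peaks, or 52.9 per Mb (47.7 to 58.4) and 49.4 per Mb (44.4 to 54.8). The right arm held 108 and 109 peaks, or 31.8 per Mb (26.1 to 38.4) and 32.1 per Mb (26.3 to 38.7). The intervals of the centre did not overlap those of either arm in either list, whereas the intervals of the arms overlapped each other.

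The centre to arm ratio of density on chromosome II was 1.68 in replicate 1 and 1.70 in replicate 2, a mean of 1.69 ± 0.0116 (SD, n = 2). It lay within the range of the other chromosomes, whose means ran from 1.18 on X and 1.51 on I to 1.70 on III and 1.91 on V. Counted in bases instead of midpoints, the replicate 1 ratio was 1.93, because centre peaks were also wider. Of the peaks of chromosome II, 59.9% lay in the centre in replicate 1 and 60.2% in replicate 2, beside 52.7% and 52.0% over all chromosomes. The centre takes up 47.1% of chromosome II and 32.7% of the other autosomes pooled, so these shares depend on where the boundaries lie.

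**Figure D2:**
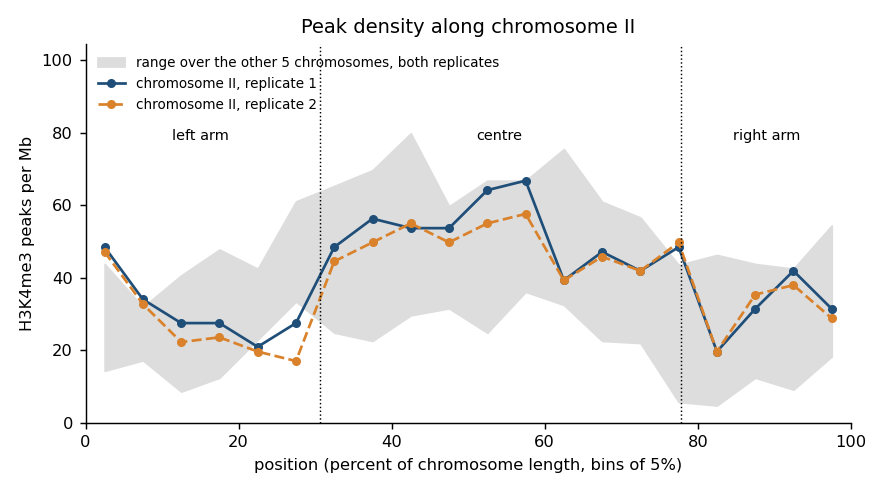
Peak density (peaks per Mb, vertical axis) in bins of 5% of chromosome length (horizontal axis) for chromosome II in replicate 1 (solid blue) and replicate 2 (dashed orange), with the range of the other 5 chromosomes over both replicates in grey and dotted lines at the borders of the centre. The first bin of chromosome II reached 48.4 and 47.1 peaks per Mb, density fell to 20.9 and 17.0 at its lowest on the left arm, and it was highest between 55 and 60% of the length, at 66.8 and 57.6.

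The arms were uneven. In bins of 5% of chromosome length, the outermost left bin had 48.4 peaks per Mb in replicate 1 and 47.1 in replicate 2, above the 38.5 and 43.8 of the highest other chromosome. The next bin, with 34.0 and 32.7, was also above all others. The bins from 20 to 25% of the length, with 20.9 and 19.6 peaks per Mb, and from 25 to 30%, with 27.5 and 17.0, lay below all other chromosomes. The bin from 75 to 80%, with 48.4 and 49.7, lay above them. Chromosome II still counts as centre for part of that bin, and its place against the borders differs from chromosome to chromosome. No other bin lay outside the range of the other chromosomes in both lists, and with 20 bins looked at, these 5 are a description.

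In bins of 1 Mb the replicates gave nearly the same profile. Over the 15 full bins the count ran from 22 to 68 in replicate 1 and from 18 to 59 in replicate 2, with a median of 40 in both, and Spearman's rho between the lists was 0.954. The richest bin was the one from 8 to 9 Mb, with 68 and 59 peaks and 21.7% and 16.8% of its bases in peaks. The first Mb, with 50 and 47 peaks, matched much of the centre although 98.8% of it was LEM-2 subdomain. Right beside it, the bin from 1 to 2 Mb had 22 and 23 peaks, the fewest in replicate 1. The bin from 3 to 4 Mb had 24 and 18, the fewest in replicate 2. At the right border the count dropped from 50 and 51 in the bin ending at 12 Mb to 24 and 25 in the bin after it. Bins with more subdomain had fewer peaks, with rho of -0.67 in replicate 1 and -0.59 in replicate 2 over the 15 bins, which share their libraries and lie side by side. Replicate 1 had more peaks in 9 of the bins, replicate 2 in 4, and 2 were equal, with a difference of at most 9 peaks.

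At a finer scale, 3 of the 153 bins of 100 kb held no replicate 1 midpoint, and 3 held no replicate 2 midpoint, or 1.96% each. On the other chromosomes this share ran from 0.662% on I to 18.1% on V in replicate 1. In replicate 2 it ran from 1.32% on I to 22.4% on V. The bin with the most replicate 1 peaks was chrII:7800001-7900000, with 12 peaks in replicate 1 and 8 in replicate 2. There, peaks covered 40.8% of the bases in replicate 1 and 22.6% in replicate 2. The bins chrII:900001-1000000 and chrII:8000001-8100000 followed with 11 replicate 1 peaks each, beside 8 and 10 in replicate 2. The first of these lay entirely in a LEM-2 subdomain and the second entirely in the extra large gap, so that equal replicate 1 counts occurred in both settings. Peaks covered less of the first bin, with 24.7% against 31.2% in replicate 1 and 16.6% against 24.0% in replicate 2.

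Peaks of the centre were wider than peaks of the arms on chromosome II. The median was 2549 bp in the centre against 2338 bp on the arms in replicate 1, and 2289 against 2180 bp in replicate 2. On the other autosomes pooled the same medians were 2417 and 2361.5 bp in replicate 1 and 2192.5 and 2234 bp in replicate 2, so the order turned between the lists there. The X chromosome had the order of chromosome II in both lists, with 2306 and 2228 bp in replicate 1 and 2129 and 2081.5 bp in replicate 2. Broad peaks were 13.4% of centre peaks and 8.27% of arm peaks of chromosome II in replicate 1, and 6.76% and 4.68% in replicate 2. Over all chromosomes these shares were 11.0% and 9.10% in replicate 1, and 6.23% and 4.84% in replicate 2, so the same order held there. The difference between chromosome II and the other autosomes in the order of median widths was not tested.

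Scores showed a weaker left arm. In replicate 1 the median score was 959.2 on the left arm, 1979 in the centre and 1753 on the right arm, and in replicate 2 it was 477.4, 656.0 and 582.1. The left arm was thus lowest in both lists. On the other autosomes pooled the left arm scored 1921 and 670.7, above the 1664 and 633.1 of their centres. On chromosome V, however, the left arm was also lowest in replicate 1, at 1330.4 against 1470.5 and 1841.2. In replicate 2 it was not, at 553.1 against 490.7 in the centre. On chromosome II, 37.7% of left arm peaks scored below 500 in replicate 1, against 23.4% in the centre and 24.1% on the right arm. In replicate 2 these shares were 52.4%, 41.1% and 45.0%. A score depends on read depth and peak width as well as on enrichment, so the 2 lists are not on a common scale of enrichment.

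Peaks were then placed against the LEM-2 map by their midpoints. Chromosome II holds 56 of the 360 LEM-2 subdomains and 55 of the 354 gaps, and the subdomains make up 48.9% of its length. In replicate 1, 200 peaks lay in a subdomain, or 31.5% (27.9 to 35.3) beside 30.0% over all chromosomes. In replicate 2 there were 189, or 32.0% (28.3 to 36.0) beside 29.7%. The mean over both lists was 31.8 ± 0.345% (SD, n = 2). The share exceeded that of the other chromosomes pooled by 1.80 and 2.76 percentage points, but the direction turned when X was left out. On X a mean of 7.79% of peaks lay in subdomains. Against the other 4 autosomes alone, the replicate 1 share was lower by 3.74 points (a difference of -3.74). Subdomains also took up less of chromosome II, at 49.0% of the bases given a class. The values were 54.8% on I, 53.5% on III, 60.3% on IV and 61.7% on V. Per Mb of subdomain, chromosome II had 26.7 peaks in replicate 1. That was below I (34.1) and III (35.9) and above IV (19.2) and V (11.4). The last peak of the chromosome, chrII:15262581-15265051 in replicate 1, lay beyond the end of the last listed subdomain and was given no class.

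Density was highest in small gaps and lowest in subdomains. In subdomains, chromosome II had 26.7 peaks per Mb (23.2 to 30.7) in replicate 1 and 25.3 per Mb (21.8 to 29.1) in replicate 2. The 30 small gaps, of 101 to 7386 bp, held 14 midpoints in each list, or 170.3 per Mb (93.1 to 285.7). The 23 medium gaps, of 10.0 to 83.2 kb, held 42 and 32, or 66.0 per Mb (47.6 to 89.3) and 50.3 per Mb (34.4 to 71.0). The intervals of the small gaps lay above those of the subdomains and of the medium gaps in both lists. Many small gaps are shorter than a peak, so that a midpoint density there rests on few bases: all 30 together span 0.0822 Mb.

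The large gap and the extra large gap each occur once on chromosome II. The large gap, chrII:4776202-5117750, spans 341.5 kb just inside the left border of the centre and held 23 and 24 peaks, or 67.3 per Mb (42.7 to 101.0) and 70.3 per Mb (45.0 to 104.6). The extra large gap, chrII:5174252-11892800, spans 6.72 Mb and covers most of the centre. It held 354 peaks in replicate 1 and 330 in replicate 2, or 55.8% (51.9 to 59.7) and 55.9% (51.8 to 60.0) of all peaks of the chromosome. The other chromosomes pooled had 47.8% and 47.0% of their peaks in 9 such gaps. Density in the extra large gap of chromosome II was 52.7 per Mb (47.3 to 58.5) and 49.1 per Mb (44.0 to 54.7), near the 55.3 and 49.6 of the other autosomes pooled.

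**Figure D3:**
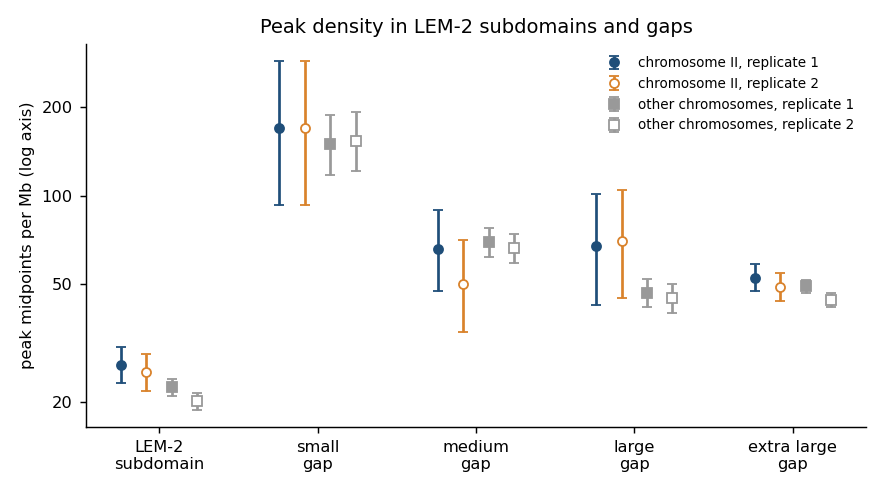
Peak midpoints per Mb (log axis) in LEM-2 subdomains and the 4 classes of gap, for chromosome II (circles) and the other 5 chromosomes pooled (squares), with replicate 1 filled and replicate 2 open and 95% exact Poisson intervals as bars. On chromosome II, density was 26.7 and 25.3 in subdomains, 170.3 in both lists in small gaps, and between 49.1 and 70.3 in the other gaps.

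Outside the extra large gap, the gaps of chromosome II were 2.79 times as dense in peaks as its subdomains in replicate 1 and 2.61 times in replicate 2, a mean of 2.70 ± 0.123 (SD, n = 2). The other chromosomes pooled gave 2.66 and 2.86, and single chromosomes had means from 2.31 on I to 5.31 on V. By its mean, chromosome II was the lowest but one of the 6, near III with 2.78 ± 0.639 (SD, n = 2). In replicate 1 both I (2.31) and III (2.33) lay below it. Chromosome II was below the other autosomes pooled, with 2.86 and 3.14. Peaks in its subdomains were narrower than peaks in its gaps, with medians of 2320 and 2547 bp in replicate 1 and 2132 and 2302 bp in replicate 2. Broad peaks were 13 of 200 subdomain peaks and 59 of 433 gap peaks in replicate 1 (6.50% and 13.6%), and 7 of 189 and 28 of 400 in replicate 2. Over all chromosomes the shares were 6.20% and 11.7% in replicate 1 and 3.66% and 6.37% in replicate 2, and the median widths 2264 and 2439 bp in replicate 1, so the same order held there.

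The gaps of chromosome II were short and often lacked a peak. Their median size was 6552 bp, against 13760 bp on the other chromosomes pooled, and only chromosome III had a shorter median, of 4891 bp. A replicate 1 peak touched 41 of the 55 gaps, or 74.5% (61.0 to 85.3), and a replicate 2 peak 40, or 72.7% (59.0 to 83.9). On the other chromosomes pooled, 86.0% (81.5 to 89.7) and 83.9% (79.3 to 87.9) of gaps were touched. Chromosome X, with 77.8% and 75.9%, came nearest to chromosome II. Among small gaps, 19 of 30 were touched in each list, or 63.3% (43.9 to 80.1) beside 71.6% and 68.5% over all chromosomes. Among medium gaps, 20 of 23 were touched in replicate 1, or 87.0% beside 93.2%, and 19 in replicate 2, or 82.6% beside 91.8%. All these intervals of chromosome II overlapped those of the other chromosomes.

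The untouched gaps are few enough to place. In all, 11 small and 3 medium gaps had no peak of either replicate, of which 8 small and 2 medium gaps were on the left arm. The longest were the small gap chrII:3425588-3432973 (7.39 kb) and the medium gap chrII:4183552-4205395 (21.8 kb). No small gap held more than 1 midpoint, and the first to hold one, chrII:579557-580450 (0.894 kb), was covered entirely by a peak in both lists. The medium gap with the most replicate 1 peaks, chrII:3892621-3975850 (83.2 kb), held 5 in replicate 1 and 3 in replicate 2.

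Subdomains differed widely among themselves. Of the 56, 19 held no replicate 1 midpoint, 13 held 1, and 24 held more. A peak of replicate 1 touched 43 of them, or 76.8% beside 70.6% over all chromosomes, and a peak of replicate 2 touched 39, or 69.6% beside 65.8%. The outermost subdomain on the left, chrII:1-579556, was also the longest of the chromosome and held the most peaks, 32 in replicate 1 and 33 in replicate 2. Its density of 55.2 and 56.9 peaks per Mb was above that of the extra large gap in both lists. By replicate 1 count, the subdomains chrII:875601-1233960 on the left arm and chrII:14045601-14403703 on the right arm followed, with 17 and 15 peaks each. The next longest, chrII:1505175-2058001 and chrII:13335607-13817593, held 11 and 9 peaks and 12 and 15 peaks. Both thus held fewer in replicate 1, but the latter held as many in replicate 2.

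In 13 subdomains neither list had a peak. These were 8 of the 35 subdomains of the left arm, 2 of the 18 of the right arm and all 3 that lie in the centre. The longest were chrII:3121935-3277126 (155.2 kb), chrII:4430951-4501483 (70.5 kb) and chrII:3823084-3892620 (69.5 kb), all between 3 and 5 Mb on the left arm. The subdomains without a peak had a median size of 38.2 kb, against 111.3 kb for those touched in both lists. The 3 central subdomains are short, making up 1.01% of the centre, and no centre peak had its midpoint in one. The count was 0 of 380 in replicate 1, which allows a share of up to 0.789% (3 peaks of the total). It was 0 of 355 in replicate 2, which allows up to 0.845%. Over all chromosomes, 0.498% and 0.276% of centre peaks lay in a subdomain, so that these 0 counts were near the background.

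Coverage by peaks dropped across the edges of subdomains. At the 55 left edges of chromosome II, peaks covered 38.2% of the bases within 5 kb on the gap side (or of the whole gap, where shorter) and 14.7% of the 5 kb on the subdomain side in replicate 1. In replicate 2 they covered 33.9% and 11.8%. The difference was 23.5 percentage points (SE 5.55 over edges) in replicate 1 and 22.1 points (SE 5.07) in replicate 2, a mean of 22.8 ± 1.03 (SD, n = 2). The gap side was higher at 32 edges in both lists, the subdomain side at 7 and 6, and no peak lay on either side at 16 and 17. On the other chromosomes pooled the difference was 20.1 and 18.7 points. At the right edges of chromosome II it was 23.4 and 19.6 points, so that both sides of a subdomain showed the drop.

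**Figure D4:**
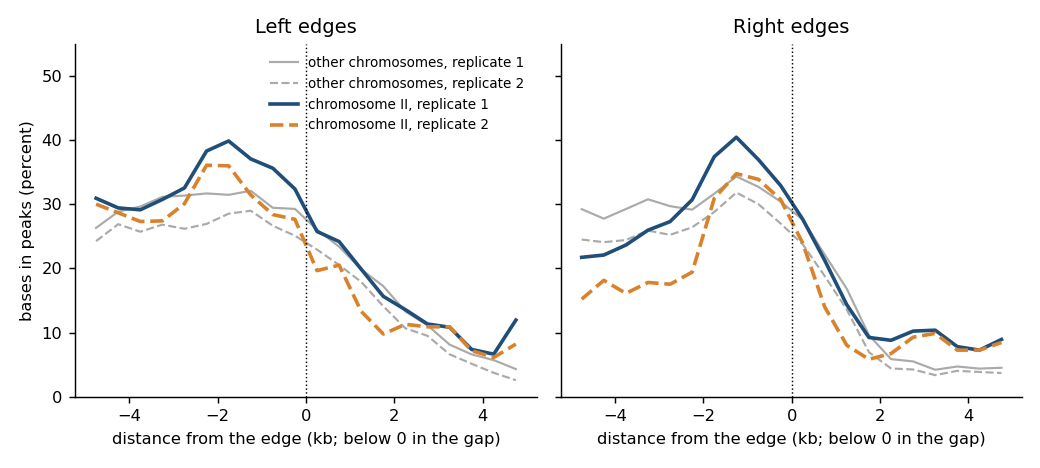
Percent of bases in peaks against the distance from the edge of a subdomain (kb, below 0 in the gap), for left and right edges, on chromosome II (blue and orange) and on the other 5 chromosomes (grey), with replicate 1 solid and replicate 2 dashed. At left edges of chromosome II the curves peaked inside the gap, at 39.9% and 36.1%, and were at 12.0% and 8.22% in the last bin inside the subdomain; far from the edge in the gap, fewer edges contribute because many gaps are short.

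Few peaks sat on an edge itself. In replicate 1, 25 peaks of chromosome II, or 3.94%, crossed an edge, beside 4.46% over all chromosomes, and in replicate 2 22 did, or 3.73% beside 4.33%. Of the peaks whose midpoint lay in a subdomain, 22 of 200 and 22 of 189 lay within 5 kb of an edge, or 11.0% and 11.6% beside 12.1% and 12.5% over all chromosomes. The median distance to the nearest edge was 78.5 kb in replicate 1 and 84.4 kb in replicate 2. In replicate 1, 121 of them, or 60.5% beside 61.8% over all chromosomes, lay more than 50 kb from any edge, and in replicate 2 118 did, or 62.4% beside 61.4%. All these shares were near the background.

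The replicates found largely the same peaks on chromosome II. A replicate 2 peak shared at least 1 bp with 544 of the 634 replicate 1 peaks, or 85.8% (82.8 to 88.4) beside 86.2% over all chromosomes. Replicate 1 overlapped 573 of the 590 replicate 2 peaks, or 97.1% (95.4 to 98.3) beside 97.3%. The replicate 1 share differed from that of the other chromosomes pooled by -0.44 percentage points, and by 2.21 points in the other direction when only peaks scoring at least 100 were kept in both lists, each less than the width of the interval. Over single chromosomes it ran only from 85.4% on X to 86.8% on III. Counted in bases, the lists shared 77.9% of what replicate 1 marked on chromosome II and 97.2% of what replicate 2 marked.

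Where 1 peak met 1 peak, position and rank matched closely. There were 512 such pairs on chromosome II, with midpoints a median of 66 bp apart. Replicate 2 was narrower in 450 pairs, or 87.9%, with a median width ratio of 0.922, and scored lower in 461. Spearman's rho was 0.919 for scores and 0.882 for widths over these pairs, and 0.862 for scores over the 309 pairs in which neither score reached 3100. The pairs share the same 2 libraries, so these are descriptions of the pair of lists. The 3 pairs with the highest replicate 2 score had replicate 2 peaks at chrII:4374291-4378010 (3216), in a medium gap, and at chrII:14152970-14155998 (3191) and chrII:1319580-1322616 (3151), both in subdomains. Replicate 1 scored 3100 at all 3, and all 3 lay on the arms. Both scores were 3100 or more in 40 pairs, many of them at exactly 3100 and in the centre. The order of pairs at the top is therefore uncertain, and these 3 are the highest by the listed number only.

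**Figure D5:**
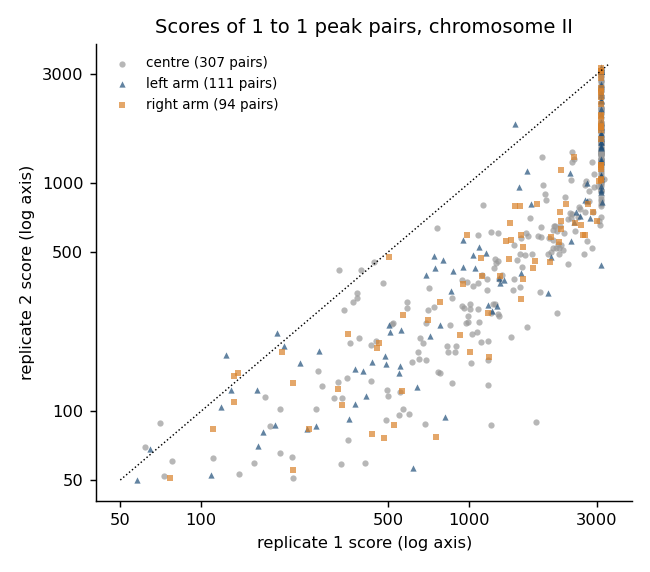
Scores of the 512 pairs of peaks that met 1 to 1 on chromosome II, replicate 1 on the horizontal and replicate 2 on the vertical axis, both log, for the centre (circles, 307 pairs), the left arm (triangles, 111) and the right arm (squares, 94). Most points (461) lie below the dotted line of equal scores, and the column at the right edge holds the pairs at 3100 in replicate 1.

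A broad replicate 1 peak was sometimes divided in replicate 2. On chromosome II, 29 replicate 1 peaks overlapped 2 or more replicate 2 peaks, or 4.57% (3.08 to 6.50) beside 2.86% over all chromosomes. This was the highest share of the 6 chromosomes, followed by 3.50% (2.30 to 5.09) on I, and the lowest was 1.58% (0.790 to 2.81) on III. The interval of chromosome II overlapped those of I, IV, V and X, and its difference from them was not tested. The 29 peaks had a median width of 6088 bp, and 21 of them lay in the centre. The reverse, a replicate 2 peak over 2 or more replicate 1 peaks, occurred 2 times on chromosome II, and over all chromosomes in 0.201% of the replicate 2 peaks.

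Peaks seen in a single list were narrow and low. The 90 peaks of chromosome II found only in replicate 1 had a median width of 1753.5 bp and a median score of 117.1, against 2561 bp and 2248 for the shared ones. The 17 found only in replicate 2 had medians of 1774 bp and 67.5. The shared portion of the replicate 1 peaks went up with their score. From 50 to 100 it was 8 of 47 peaks, or 17.0% (7.65 to 30.8) beside 20.1% over all chromosomes. From 100 to 500 it was 74 of 123, or 60.2% (50.9 to 68.9) beside 64.2%. From 500 to 1000 it was 68 of 70, or 97.1% beside 96.8%. All 177 peaks from 1000 up to 3100 and all 217 at 3100 or more were shared, beside 99.9% and 100%. The rise was thus near the background.

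The strongest peaks of a single list lay in different places in each. The highest-scoring replicate 1 peaks without a partner were chrII:7884467-7889072 (618.6), chrII:9019239-9024619 (531.7) and chrII:5545416-5548177 (497.1), all in the extra large gap. In replicate 2 they were chrII:13636766-13640520 (308.7) and chrII:14493042-14494922 (110.3), in subdomains of the right arm, and chrII:9160377-9162570 (111.6) in the extra large gap.

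Sharing differed between the parts of the chromosome, in another order in each list. On the left arm, replicate 2 overlapped 79.5% (72.0 to 85.7) of replicate 1 peaks, against 86.6% (82.7 to 89.8) in the centre and 91.7% (84.8 to 96.1) on the right arm. On the other autosomes pooled the shares were 88.3%, 85.3% and 86.5%, so for replicate 1 the left arm was the highest part there and the lowest on chromosome II. On X the left arm was also lowest, at 84.6% against 85.0% in the centre and 90.6% on the right arm. On III it lay between the other parts, at 86.4% against 87.6% and 85.4%. The intervals of the 2 arms of chromosome II overlapped slightly. Of the replicate 2 peaks, replicate 1 overlapped 96.0% (91.0 to 98.7) on the left arm, 98.6% (96.7 to 99.5) in the centre and 93.6% (87.2 to 97.4) on the right arm, so that in this list the right arm was lowest. Among replicate 1 peaks scoring 500 or more, all 91 of the left arm, 289 of 291 in the centre and all 82 of the right arm were shared, so that the unshared peaks of the left arm all came from the 55 below 500. The part of score or depth in the difference between the arms was not tested. By LEM-2 class, replicate 2 overlapped 85.5% of the replicate 1 peaks in subdomains beside 85.0% over all chromosomes, 86.2% in the extra large gap beside 85.6%, and all 14 in small gaps beside 97.7%. It overlapped 31 of the 42 in medium gaps, or 73.8% beside 87.8%, and 22 of the 23 in the large gap, or 95.7% beside 88.6%. In replicate 2 all 32 peaks in medium gaps were shared, beside 97.9% over all chromosomes, as were all 14 in small gaps, beside 100%. The other shares of replicate 2 were 93.7% in subdomains beside 96.1%, 95.8% in the large gap beside 97.1% and 98.8% in the extra large gap beside 97.9%.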

How the data were processed

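The authors deposited 1 BED list of MACS peaks per H3K4me3 replicate, called at a p-value threshold of 1e-05, with the score (10 times the negative log10 of the p-value) in the fifth column. The submitters' processing notes name BWA, whereas the methods name MAQ and ce4 for the H3K4me3 reads. The build is not named with the lists, and coordinates were taken as ce4 on that basis. The version of MACS is not given in the sources used here. Read depth per peak is unknown, since the lists carry no read counts.

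Starts were moved to counting from 1. Peaks were placed by their midpoint in the arms, centres, LEM-2 subdomains and gaps whose coordinates the study lists. Where a gap's listed end was the start of a subdomain, it was moved back by 1 base. Peaks overlapped if they shared at least 1 bp. Replicate 1 was the main library, as in the study. Members, region lists and tests were chosen with earlier results of these data known. Regions were named by rule: the 3 most extreme of each kind described (width, score, spacing, stretch without peaks, bins of 100 kb, subdomains by peaks or by absence of them), every large and extra large gap, and the medium and small gap with the most peaks and the longest without, with ties going to the lower start. The 3 longest subdomains and the first run of close peaks were added after their values were seen. Scripts were tested on simulated data with known answers. Alternatives were each replicate alone, a score of at least 100 (p of 1e-10), shared peaks only, merging below 1 kb, other counting, windows and edges, a reciprocal overlap of 50%, and autosomes only. The work was done in Python 3.11.15 with pandas 2.3.3 and numpy 2.4.6 for tables, scipy 1.17.1 for intervals and correlations, and matplotlib 3.10.9 for plots.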

Additional observations from a re-analysis of the deposited data

How the results depend on the processing

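For 15 measures, 85 alternative values were computed. Of these, 24 leave out a replicate and so only repeat the value of the other one. Of the other 61, 32 moved by less than the replicate SD (for the overlapped share its interval, for the correlation 0.01), 27 moved by more and 2 changed sign. With 2 replicates this SD is itself poorly known, and p cannot fall below 0.5. Against the other 4 autosomes alone, the difference in the share of peaks in subdomains was -3.74 points and the difference in density 3.71 per Mb. With scores of at least 100, the difference in the overlapped share was 2.21 points, density 38.4 per Mb and 3.81 above the other chromosomes, spacing 12782.5 bp, the centre to arm ratio 1.72, the share in subdomains 31.0% and rho of scores 0.908. With shared peaks only, density was 35.6 per Mb and 3.36 above the others, spacing 13955 bp, the centre to arm ratio 1.72 and the difference at left edges 25.2 points. With peaks merged below 1 kb, density was 38.5 per Mb and 3.50 above the others, spacing 13263 bp, the centre to arm ratio 1.61 and the share in subdomains 32.1%. Counted in bases, the centre to arm ratio was 1.93, and the share in subdomains 28.4%, 0.713 points above the others. Counting a peak in every class gave 34.2% in subdomains, and spacing between midpoints 15149 bp. The difference at left edges was 15.3 points within 2 kb and 21.6 points for gaps of at least 5 kb. The overlapped share was 82.2% at 50% reciprocal overlap and 97.1% for replicate 2. Without pairs at 3100, rho was 0.862. The cause of these shifts was not tested. Leaving out either replicate gave ranges of 38.6 to 41.5 per Mb, 4.11 to 4.53 above the others, 10.3 to 12.9% of bases, widths of 2210 to 2442.5 bp and 19.0 to 73.5 bp above the others, spacings of 12128 to 12768 bp with differences from -2525.5 to -1129.5 bp, centre to arm ratios of 1.68 to 1.70, 31.5 to 32.0% in subdomains, 1.80 to 2.76 points above the others, gap to subdomain ratios of 2.61 to 2.79 and 22.1 to 23.5 points at left edges. No paired analysis was possible because the inputs were not analysed here and share no replicate number with the H3K4me3 samples.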
